A study of Mus musculus with 41 samples.

Results

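Tet1, Tet2, Tet3 and Tdg, which encode the enzymes of active DNA demethylation, were followed through 41 RNA-seq libraries of sorted mouse CD4 T cells. The 4 genes were taken by symbol from a table of 19434 genes, and all 4 passed the filter on low counts in both experiments. The libraries came from a study of Uhrf1 in regulatory T cells (Treg cells), the CD4 T cells that hold other immune cells in check and are defined by the transcription factor Foxp3.

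The Tet proteins are dioxygenases that oxidise methylcytosine in DNA step by step to hydroxymethyl-, formyl- and carboxylcytosine, using iron, oxygen and oxoglutarate. Tdg, thymine DNA glycosylase, cuts out the formyl and carboxyl forms, and base excision repair then puts back an unmodified cytosine. The opposing activity is the copying of methyl marks after replication, in which Uhrf1 binds DNA methylated on one strand and brings in Dnmt1, while Dnmt3a and Dnmt3b write marks anew. In Treg cells, Tet enzymes are known for keeping an intronic Foxp3 enhancer free of methylation, which keeps Foxp3 expressed through cell division.

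In the chimera experiment, CD25-high Foxp3-YFP+ Treg cells came from female mice of 8 weeks. Chimeric knockouts were Uhrf1fl/flFoxp3+/YFP-Cre (n = 4), in which Cre is made from 1 of the 2 X-linked Foxp3 alleles, and controls were Uhrf1+/+Foxp3YFP-Cre/YFP-Cre (n = 4). In the pulse-chase experiment, Uhrf1fl/flFoxp3GFP-CreERT2Rosa26SorCAG-tdTomato mice (fl/fl, n = 6 libraries per population) were set against Uhrf1+/+Foxp3GFP-CreERT2Rosa26SorCAG-tdTomato controls (n = 5 per population), all 8 weeks old by their labels. These mice ate chow with tamoxifen for 2 weeks, which switches on Cre in Foxp3-expressing cells and marks them with tdTomato for good, and then standard chow for 4 weeks. Sorting gave ex-Foxp3 cells, which kept the tdTomato mark but had no Foxp3-GFP, and labeled Treg cells, which had both. The last population, called post-tamoxifen Treg cells, had Foxp3-GFP without tdTomato and so carried no mark of Cre activity, in fl/fl mice too. Foxp3-driven Cre was carried in every group, controls included.

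Total counts were 2403189 to 5709702 per chimera library and 781437 to 3435802 per pulse-chase library. Levels are given in CPM, the standard depth-scaled count, taken here over the TMM-scaled library size, as mean ± SD. T cell markers were high in all 41 libraries (Cd3e 404 to 786 CPM, Cd4 645 to 1282 CPM), and Foxp3 ran from 13.3 to 151 CPM in ex-Foxp3 cells, against 317 to 508 CPM in labeled cells. Several libraries stood apart. The library labelled chimeric knockout 4 held 22.3 CPM of the targeted gene Uhrf1, against 8.66 to 12.0 CPM in the other chimeric knockouts and 22.3 to 32.5 CPM in controls. Chimera controls 3 and 4 held 288 and 334 CPM of summed B and plasma cell markers, where the other chimera libraries held 33.5 to 58.7 CPM. Post-tamoxifen fl/fl 3 and post-tamoxifen control 2 held 127.6 and 122.6 CPM of Foxp3, where the other post-tamoxifen libraries held 287 to 537 CPM. Pulse-chase control numbers 2 and 3 held reads of Y-linked genes, so sex may not be balanced between the pulse-chase genotypes. Post-tamoxifen fl/fl libraries 1 to 3 held 3513 to 5772 CPM of 20 summed G2/M transcripts, which mark dividing cells, against 359 to 613 CPM in libraries 4 to 6. In the pulse-chase mice the whole-gene Uhrf1 count does not show the deletion: labeled cells held 10.4 to 88.5 CPM in fl/fl mice and 11.3 to 104 CPM in controls. Post-tamoxifen cells averaged 84.9 ± 65.1 CPM of Uhrf1 in fl/fl mice and 29.9 ± 18.7 CPM in controls. That difference did not pass (log2 fold change 1.62, adjusted p = 0.113 by edgeR).

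Where the genes lie is given in mm10, the build of the count table. Tet1 spans chr10:62804570-62899118 (minus strand), Tet2 chr3:133463679-133544390 (minus strand), Tet3 chr6:83362373-83441678 (minus strand) and Tdg chr10:82629828-82650799 (plus strand). Tdg overlaps Glt8d2 on the other strand. With no strand setting given, reads of the pair cannot be told apart, but Glt8d2 held at most 13 reads in any library. The promoter windows below, of 250 bases up to the RefSeq start (GRCm38.p6), are shown because Tet1 and Tet3 shared a pattern over the populations and Tet2 did not. They read 5′ to 3′ on the strand of the gene, with every CpG, the dinucleotide whose methylation these enzymes act on, in capitals. The Tet1 window (chr10:62887325-62887574, minus strand) belongs to a RefSeq start inside the interval that the count table gives for the gene.
Tet1: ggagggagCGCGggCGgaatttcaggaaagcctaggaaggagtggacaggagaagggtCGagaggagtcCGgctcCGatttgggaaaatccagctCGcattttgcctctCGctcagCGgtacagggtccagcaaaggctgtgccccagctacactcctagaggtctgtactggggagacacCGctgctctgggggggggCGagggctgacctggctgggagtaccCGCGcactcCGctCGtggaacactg
Tet3: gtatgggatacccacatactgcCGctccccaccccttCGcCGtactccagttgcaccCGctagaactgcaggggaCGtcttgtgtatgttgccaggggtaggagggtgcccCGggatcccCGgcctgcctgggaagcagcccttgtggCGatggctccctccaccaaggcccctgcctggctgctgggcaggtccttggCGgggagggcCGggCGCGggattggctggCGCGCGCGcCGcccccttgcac
Tet2: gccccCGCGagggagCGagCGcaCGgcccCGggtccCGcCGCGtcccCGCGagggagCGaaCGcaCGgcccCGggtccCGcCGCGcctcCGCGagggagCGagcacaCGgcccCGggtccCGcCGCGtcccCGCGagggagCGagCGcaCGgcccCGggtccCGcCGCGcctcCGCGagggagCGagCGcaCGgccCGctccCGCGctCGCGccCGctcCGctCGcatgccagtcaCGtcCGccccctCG

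The Tet1 window held 15 CpGs at 62.8% G and C, the Tet3 window (chr6:83441679-83441928, minus strand) 17 CpGs at 69.6%, and the Tdg window (chr10:82629588-82629837, plus strand, not printed) 19 CpGs at 56.8%. The Tet2 window (chr3:133544391-133544640, minus strand) held 51 CpGs at 83.6% G and C. Among 32851 promoter windows of the same length the median was 6 CpGs, and 0.067% held at least 51. The letters of the Tet2 window repeat: shifted by 42 bases against itself, 77.9% of its positions match, where the best shift gives 35.5% to 37.0% in the other windows. Both strands were searched for short motifs. The GC box, spelt GGGCGG, was found in the Tet1, Tet2 and Tet3 windows and in 32.7% of all windows. The CCAAT box, spelt as its name, was found in the Tet3 and Tdg windows and in 33.8% of all. The Tdg window also held an E-box, spelt CACGTG and found in 6.02% of all, and a CRE, spelt TGACGTCA and found in 1.55%. The GC box, the E-box and the CRE each contain a CpG and so overlap the capitals. The forkhead motif GTAAACA, of the kind that Foxp3 binds, was in 0 of the 4 windows and in 3.17% of all. These matches describe the letters only.

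Tet3 was the most abundant of the 4 messages and Tet1 the least. Levels of different genes were compared as CPM per kb of merged exon length. On this scale Tet3 stood at 19.4 ± 1.96 in labeled fl/fl cells (n = 6), the lowest mean of the 6 pulse-chase groups, and at 37.6 ± 7.83 in post-tamoxifen control cells (n = 5), the highest. Over the same 6 groups Tet2 means lay between 10.7 and 11.5 CPM per kb, Tdg means between 6.63 and 8.97, and Tet1 means between 1.17 and 3.06. In the chimera the means were 35.3 in knockouts and 31.8 in controls for Tet3, 10.6 in knockouts and 13.1 in controls for Tet2, 7.98 in knockouts and 8.43 in controls for Tdg, and 2.56 in knockouts and 2.35 in controls for Tet1. The order Tet3, Tet2, Tdg, Tet1 held in 40 of 41 libraries, and in all 41 when the longest transcript was taken as the length. The counts behind these levels were 365 to 3204 reads per library for Tet3, 117 to 1246 for Tet2, 29 to 238 for Tdg and 16 to 228 for Tet1, so Tet1 and Tdg carry the largest counting error. Ordered by mean CPM, the pulse-chase groups ran for Tet3 from post-tamoxifen control, ex-Foxp3 control, post-tamoxifen fl/fl and labeled control to ex-Foxp3 fl/fl and labeled fl/fl cells. For Tet1 they ran from post-tamoxifen control, post-tamoxifen fl/fl, ex-Foxp3 control and labeled control to ex-Foxp3 fl/fl and labeled fl/fl cells. The ranges of neighbours in these orders overlapped for all 4 genes.

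**Figure D1:**
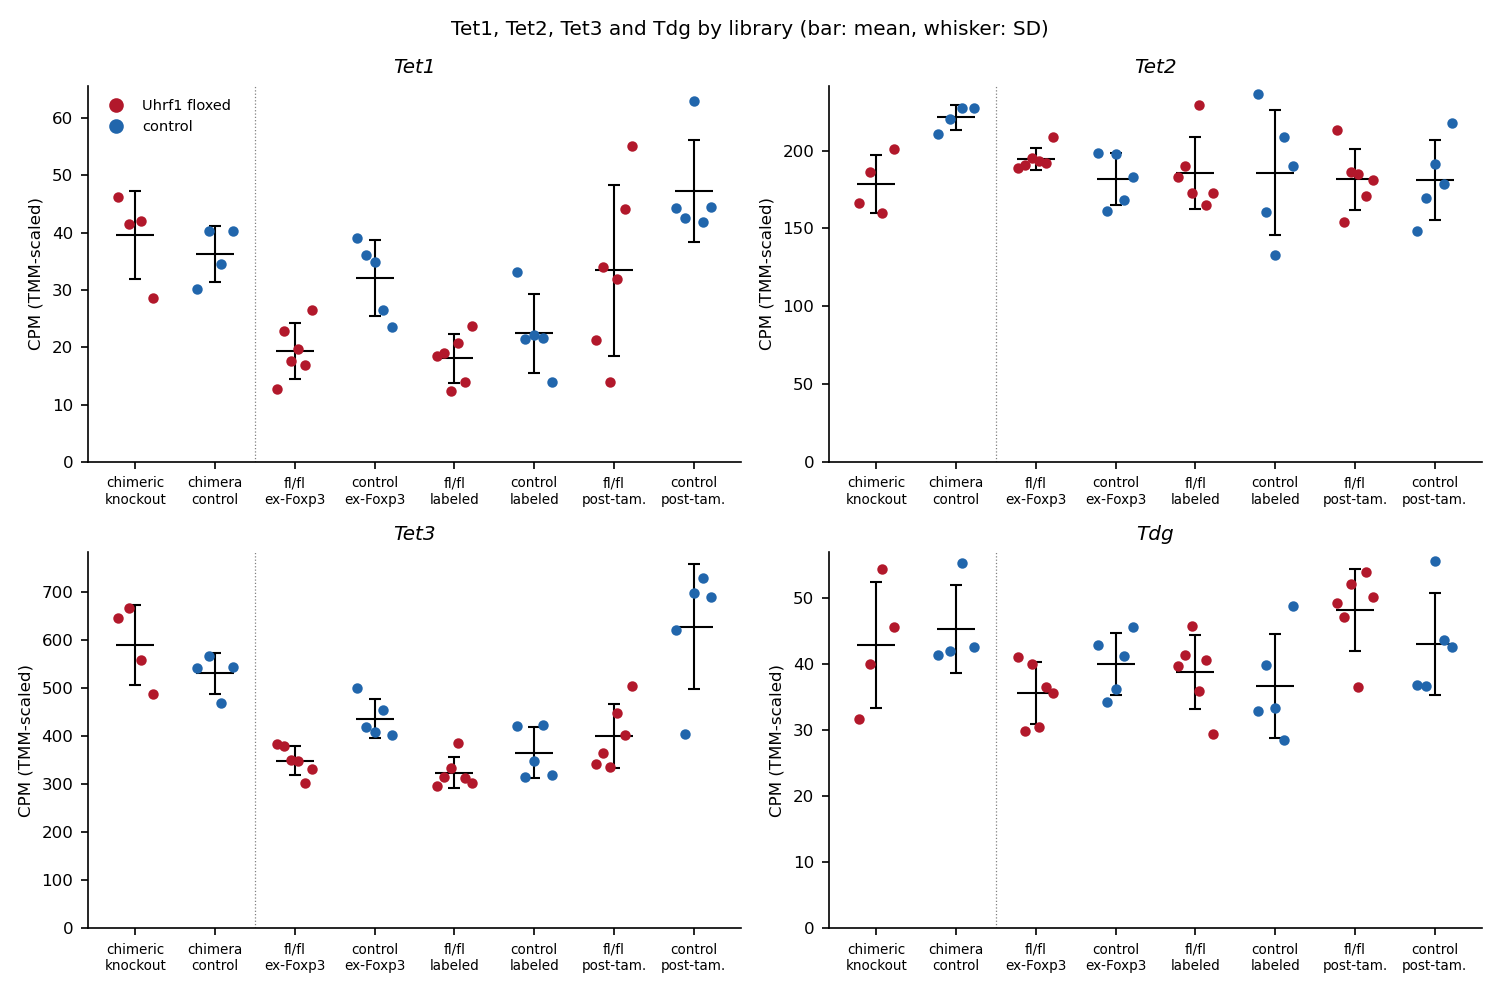
Level of each gene (CPM of the TMM-scaled library, linear axis from 0) in every library of the 8 groups. Points are libraries in order of replicate number, bars are means and whiskers SD, and the dotted line separates the chimera from the pulse-chase experiment. Of the pulse-chase groups, post-tamoxifen control cells stand highest for Tet1 and Tet3, at 47.3 and 628 CPM on average, while Tet2 means of the pulse-chase groups stay within 181 to 195 CPM.

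Tet3, the Tet enzyme with most message in these cells, was lower in labeled than in post-tamoxifen Treg cells and lower in fl/fl than in control post-tamoxifen Treg cells. In post-tamoxifen cells, the lowest, median and highest fl/fl libraries held 335, 384 and 504 CPM, against 620.1, 405, 698, 728 and 689 CPM in control libraries 1 to 5. Every fl/fl library was below every control library other than control 2, which fell among the fl/fl values and was 1 of the 2 post-tamoxifen libraries low in Foxp3. The log2 fold change was -0.65 ± 0.12 (SE; 0.637-fold; adjusted p = 0.00073, edgeR's quasi-likelihood test with Benjamini-Hochberg adjustment over all genes). Without the 2 libraries low in Foxp3 it was -0.71 ± 0.11 (adjusted p = 2.8e-05). Tet3 alone of the 4 genes passed in this comparison, and 7.23% of all 9921 genes tested did. In bulk RNA, fewer cells of a type and less RNA per cell cannot be told apart.

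The same fl/fl libraries differed among themselves in dividing-cell transcripts. Post-tamoxifen fl/fl libraries 1 to 3, with 3513 to 5772 CPM of summed G2/M transcripts, held 341, 364 and 335 CPM of Tet3, and libraries 4 to 6, with 359 to 613 CPM, held 449, 403 and 504 CPM. The Tet3 log2 fold change between genotypes was -0.72 ± 0.15 (adjusted p = 0.00145) in libraries numbered 1 to 3. In those numbered 4 and above, where the controls were libraries 4 and 5 only, it was -0.63 ± 0.12 (adjusted p = 0.0008). Post-tamoxifen control libraries 1 to 3 held 447 to 1638 CPM of summed G2/M transcripts, and libraries 4 and 5 held 241 and 210 CPM. The fl/fl libraries thus held more of them in each set, and the split did not make the genotypes alike in dividing cells. With a term for the summed G2/M transcripts the Tet3 genotype difference was -0.56 ± 0.11 (adjusted p = 0.00418). The G2/M sum itself differed between the genotypes (median 2063 CPM in fl/fl and 447 CPM in control cells). The term therefore does not separate dividing cells from genotype. Summed myeloid markers (11 genes) were 77.2 to 693 CPM in fl/fl and 42.3 to 457 CPM in control post-tamoxifen cells, and with a term for them Tet3 was at -0.65 ± 0.12 (adjusted p = 0.00059). Summed B and plasma cell markers (10 genes) were 98.1 to 1302 CPM in fl/fl and 31.9 to 510 CPM in control post-tamoxifen cells, and their part in the result was not tested.

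**Figure D2:**
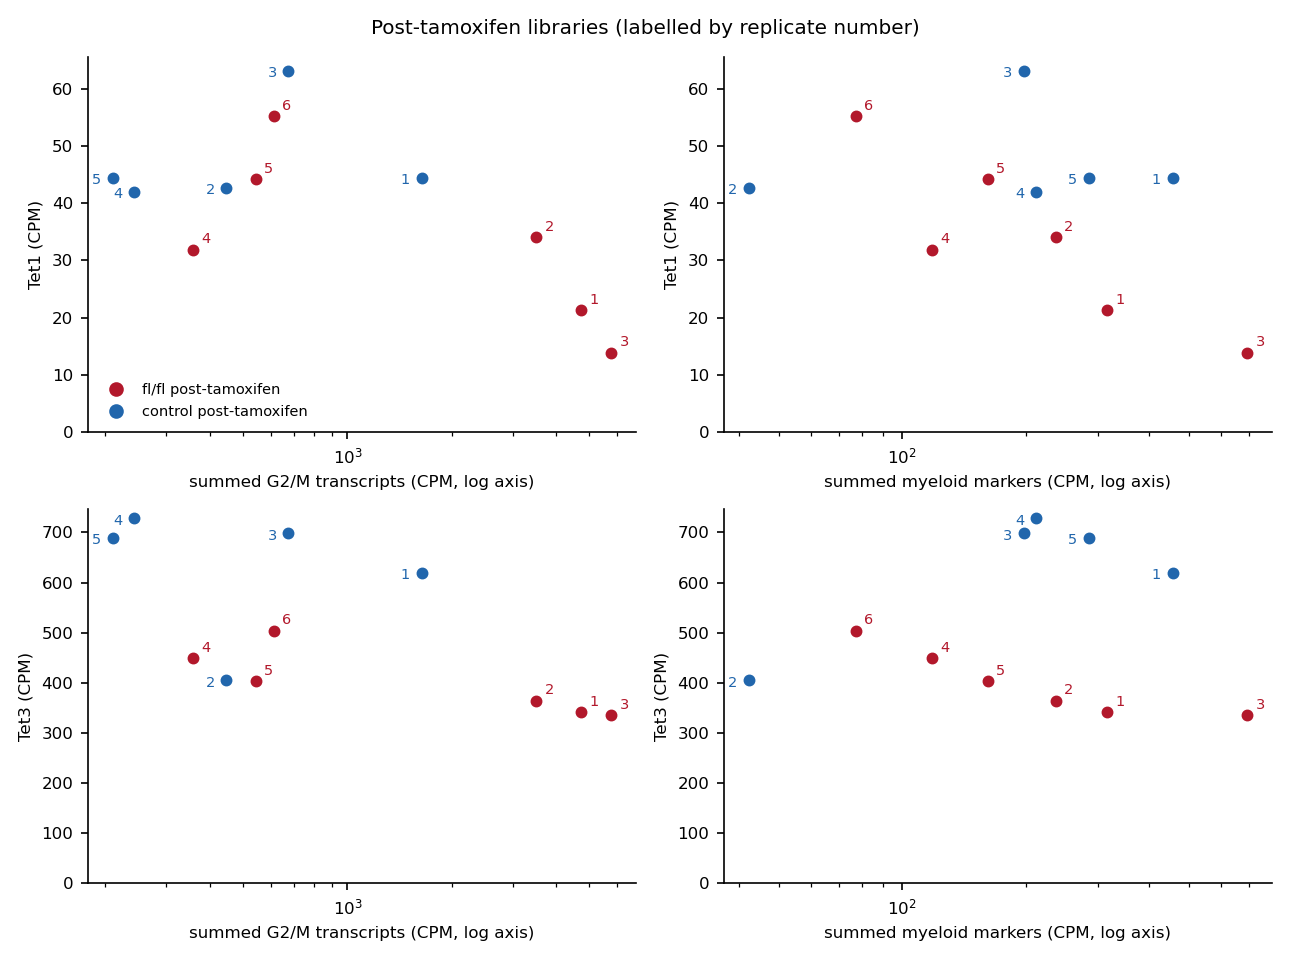
Tet1 and Tet3 levels (CPM, linear axes from 0) of the 11 post-tamoxifen libraries against summed G2/M transcripts and summed myeloid markers (CPM, log axes); numbers are replicate numbers. Fl/fl libraries 1 to 3 lie at 3513 to 5772 CPM of G2/M transcripts with Tet1 at 13.9 to 34.0 CPM, and control library 2 lies at 405 CPM of Tet3 with 42.3 CPM of myeloid markers.

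In labeled Treg cells the genotypes were closer. Tet3 held 296, 314 and 385 CPM in the lowest, median and highest labeled fl/fl library, against 422, 315, 349, 424 and 318 CPM in labeled control libraries 1 to 5. The ranges overlapped, and the log2 fold change of -0.18 ± 0.12 did not pass (adjusted p = 0.679). In ex-Foxp3 cells the lowest, median and highest fl/fl library held 301, 349 and 383 CPM of Tet3, against 499, 418, 408, 454 and 402 CPM in control libraries 1 to 5. These groups did not overlap, yet the log2 fold change of -0.32 ± 0.12 did not pass the adjustment over all genes (adjusted p = 0.278, unadjusted p = 0.00834). Fitted with these 2 groups alone it was -0.32 ± 0.080 and passed (adjusted p = 0.0422). By edgeR and by DESeq2 the count of members that passed was 0 in both populations. In labeled cells 0 members had an unadjusted p under 0.05, where 9.41% of all genes had one and 0.0101% passed. In ex-Foxp3 cells 2 members (Tet1 and Tet3) had one, where 8.84% of all genes did and 0.181% passed. In the chimera, Tet3 averaged 590 ± 82.8 CPM in chimeric knockouts and 530 ± 42.2 CPM in controls (n = 4 each), a log2 fold change of 0.15 ± 0.086 that did not pass (adjusted p = 0.464).

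Between populations, Tet3 fell in labeled relative to post-tamoxifen cells when both genotypes were averaged, by 0.54 ± 0.083 on the log2 scale (0.687-fold; adjusted p = 1.21e-05). It was lower in the labeled library in 6 of 6 fl/fl pairs of the same number. In control mice the log2 fold change was -0.78 ± 0.12 (adjusted p = 9.89e-05), and in fl/fl mice, where the difference did not pass, it was -0.31 ± 0.11 (adjusted p = 0.112). The genotype difference in this contrast, fl/fl minus control, was 0.47 ± 0.17 and did not pass (adjusted p = 0.534, unadjusted p = 0.00706), so the genotypes are not shown to differ in it. In that interaction test 0 members passed by edgeR or DESeq2 and 1 had an unadjusted p under 0.05, where 0.0202% of all genes passed and 7.73% had an unadjusted p under 0.05. Summed myeloid markers were 37.9 to 92.6 CPM in labeled cells, fl/fl and control, and 42.3 to 693 CPM in post-tamoxifen cells, and summed B and plasma cell markers were 71.3 to 114.5 CPM in labeled and 31.9 to 1302 CPM in post-tamoxifen cells. With a term for the myeloid sum the averaged Tet3 value was -0.545 ± 0.12 (adjusted p = 0.00306). The sum itself differed between these populations, so the term does not separate the 2. The part of the B cell sum was not tested. Of the 41 libraries, the myeloid markers Cd68 and Cst3 were at 0 in none, Csf1r in 2 (highest 304 CPM), Lyz2 in 5 and Lyz1 in 40. Of the B and plasma cell markers, Cd74 was at 0 in none (highest 492.5 CPM), Igj in 21 (highest 478.5 CPM) and Pax5 in 26.

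Averaged over the genotypes, Tet3 was lower in ex-Foxp3 than in post-tamoxifen cells by a log2 fold change of -0.36 ± 0.082 (adjusted p = 0.00152). In control mice the value was -0.53 ± 0.12 (adjusted p = 0.00635), and in fl/fl mice -0.20 ± 0.11, which did not pass (adjusted p = 0.247). The control call was lost in libraries numbered 1 to 3 (-0.38 ± 0.14, adjusted p = 0.354) and with a term for myeloid markers (-0.53 ± 0.17, adjusted p = 0.0893). The averaged call depended on the libraries: in those numbered 1 to 3 it was -0.14 ± 0.10 (adjusted p = 0.474), in those numbered 4 and above -0.60 ± 0.086 (adjusted p = 5.17e-07). Summed myeloid markers were 26.5 to 98.6 CPM in ex-Foxp3 and 42.3 to 693 CPM in post-tamoxifen cells. With a term for them the averaged value stayed at -0.365 ± 0.13 and no longer passed (adjusted p = 0.0909). Comparisons against post-tamoxifen cells share the post-tamoxifen libraries.

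**Figure D3:**
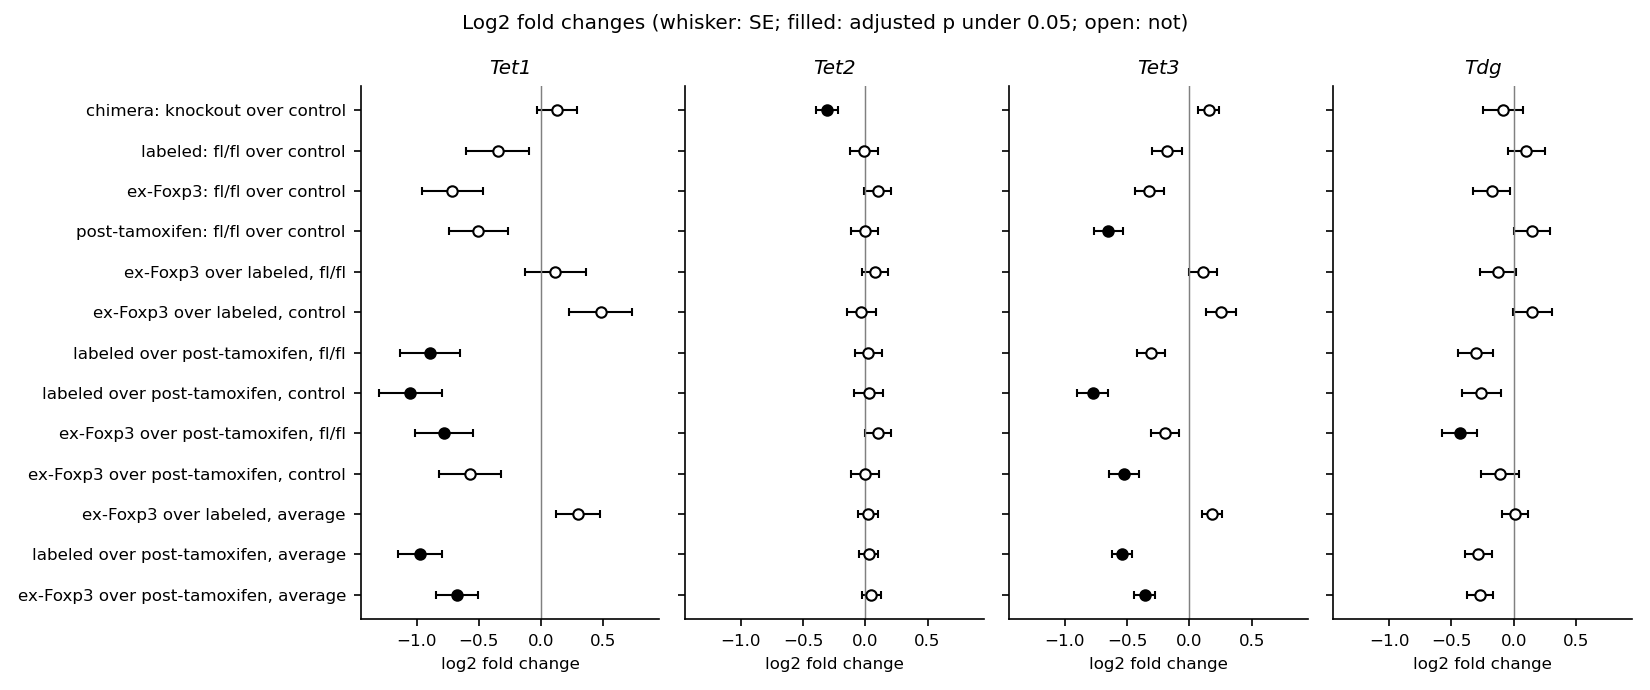
Log2 fold changes (x axis) of the 4 genes in 13 comparisons (rows), each group named first over the group named second, with SE as whiskers; filled points have an adjusted p under 0.05. Filled points for Tet1 and Tet3 lie left of 0, between -1.05 and -0.36, the 1 filled Tet2 point is that of the chimera, at -0.31, and the 1 filled Tdg point is that of ex-Foxp3 over post-tamoxifen fl/fl cells, at -0.43.

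Tet1, best known from embryonic stem cells, encodes a protein with a CXXC DNA-binding domain in its long isoform. It was the scarcest of the 4 and, like Tet3, was lower in labeled and ex-Foxp3 than in post-tamoxifen cells. Labeled fl/fl cells held 12.4, 18.7 and 23.6 CPM in their lowest, median and highest library, against 13.9, 32.9 and 55.2 CPM in post-tamoxifen fl/fl cells. Labeled control libraries 1 to 5 held 33.2, 21.5, 22.1, 21.6 and 13.96 CPM, against 44.4, 42.6, 63.1, 41.9 and 44.4 CPM in post-tamoxifen control libraries 1 to 5. The control populations did not overlap, while the fl/fl ones did. Averaged over the genotypes the log2 fold change was -0.97 ± 0.17 (0.510-fold; adjusted p = 8.97e-05), and Tet1 was lower in 6 of 6 fl/fl pairs of the same number.

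The Tet1 difference between labeled and post-tamoxifen cells passed in each genotype. It was -0.89 ± 0.24 in fl/fl (adjusted p = 0.0218) and -1.05 ± 0.25 in control mice (adjusted p = 0.00602). In libraries numbered 1 to 3 alone the fl/fl value was -0.48 ± 0.31 (adjusted p = 0.695), and without post-tamoxifen fl/fl library 6, the highest in Tet1, it was -0.67 (adjusted p = 0.109). It was also lost without labeled fl/fl library 3 (-0.80, adjusted p = 0.0568) or 5 (-0.82, adjusted p = 0.0629) and without post-tamoxifen fl/fl library 5 (-0.81, adjusted p = 0.0514). The control value in libraries numbered 1 to 3 was -0.97 ± 0.28 (adjusted p = 0.0741). With a term for myeloid markers the averaged Tet1 value was -1.33 ± 0.22 (adjusted p = 0.00014), and with one for G2/M transcripts it was -0.93 ± 0.17 (adjusted p = 4.53e-05). The myeloid sum differed between these populations, so its term does not separate the 2. In the averaged contrast 2 members (Tet1 and Tet3) passed, beside 13.2% of all genes. In fl/fl mice 1 member passed (Tet1), beside 4.58% of all genes (454 genes, or 805 with the replicate block), and in controls 2 passed (Tet1 and Tet3), beside 7.93%.

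In fl/fl mice ex-Foxp3 cells held 12.7, 18.6 and 26.5 CPM in the lowest, median and highest library, a log2 fold change of -0.78 ± 0.23 over post-tamoxifen cells (adjusted p = 0.0196). In control mice ex-Foxp3 libraries 1 to 5 held 39.2, 36.2, 34.9, 26.6 and 23.6 CPM, all below the 5 post-tamoxifen control libraries, but the log2 fold change of -0.57 ± 0.25 did not pass (adjusted p = 0.224). The fl/fl call was lost without post-tamoxifen fl/fl library 6 (-0.57, adjusted p = 0.0924) and without ex-Foxp3 fl/fl libraries 1 and 3 (-0.64, adjusted p = 0.0954). Those ex-Foxp3 libraries held 13.96 and 22.9 CPM of summed NK cell markers and the lowest Foxp3 levels of their group. Of the NK markers, Gzma (highest 22.4 CPM) was at 0 in 25 of the 41 libraries, Klrb1c in 22 and Ncr1 in 40. In libraries numbered 1 to 3 the fl/fl value was -0.39 ± 0.30 (adjusted p = 0.489). The average over genotypes was -0.68 ± 0.17 (adjusted p = 0.00405), and in libraries numbered 1 to 3 it was -0.425 ± 0.21 (adjusted p = 0.236). In this contrast 2 members passed on average, beside 16.2% of all genes, 2 in fl/fl mice (Tet1 and Tdg), beside 15.2%, and 1 in controls (Tet3), beside 5.33%.

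Between genotypes Tet1 did not pass in any population. In ex-Foxp3 cells it was 19.4 ± 4.84 CPM in fl/fl (n = 6) and 32.1 ± 6.67 CPM in control mice (n = 5), a log2 fold change of -0.71 ± 0.24 (adjusted p = 0.236, unadjusted p = 0.00556). In labeled cells it was -0.35 ± 0.25 (adjusted p = 0.724), and in post-tamoxifen cells -0.50 ± 0.24 (adjusted p = 0.177). The post-tamoxifen value differed between the sets of libraries: -1.11 ± 0.29 (adjusted p = 0.0102) in those numbered 1 to 3, of which the fl/fl ones were rich in G2/M transcripts and held 21.3, 34.0 and 13.9 CPM of Tet1, and 0.035 ± 0.28 (adjusted p = 0.98) in those numbered 4 and above. Without post-tamoxifen fl/fl library 6 it was -0.72 ± 0.24 and passed (adjusted p = 0.0416). In the chimera Tet1 was 39.6 ± 7.65 CPM in chimeric knockouts and 36.3 ± 4.94 CPM in controls (log2 fold change 0.13 ± 0.16, adjusted p = 0.819).

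Tet1 and Tet3 levels were alike in their order over the populations. Over the 33 pulse-chase libraries, which fall into 6 groups, Pearson's r of their log2 CPM was 0.77, and it was 0.431 once the group means were subtracted, or 0.279 without the 2 libraries farthest from the median in Tet1. Within the groups of 6 libraries r was 0.819 in post-tamoxifen fl/fl, -0.193 in ex-Foxp3 fl/fl and 0.000819 in labeled fl/fl cells. Without the 2 libraries farthest from the median in Tet1 these were 0.553, 0.849 and 0.0985. Within the groups of 5 libraries r was 0.317 in post-tamoxifen control, 0.42 in ex-Foxp3 control and 0.68 in labeled control cells. Without the 2 farthest these were 0.985, 0.981 and -0.0479. Few libraries remain in a group once 2 are left out, and r moved widely. In the 8 chimera libraries it was 0.724 (0.848 without the 2 farthest). These values are descriptions, since the libraries share their scaling and groups. The r of Tet2 with Tet3 was 0.0684, and that of Tet2 with Tet1 was -0.0505.

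**Figure D4:**
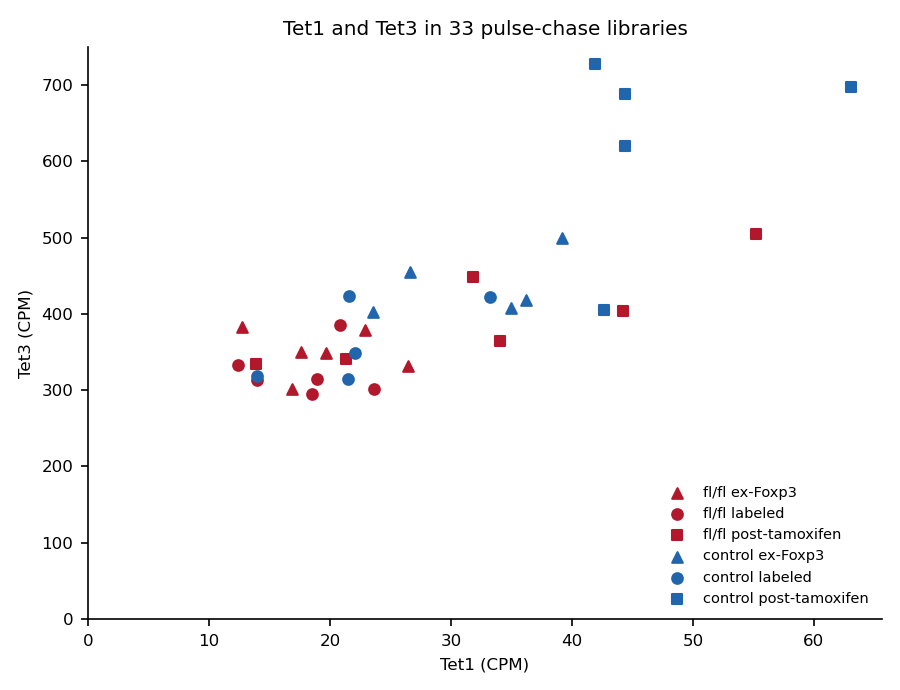
Tet1 (x axis, CPM) against Tet3 (y axis, CPM) in the 33 pulse-chase libraries, both axes linear from 0; symbols mark the population and colours the genotype. Labeled and ex-Foxp3 libraries reach at most 39.2 CPM of Tet1 and 499 CPM of Tet3, and 4 of the 5 post-tamoxifen control libraries stand at 620.1 to 728 CPM of Tet3.

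Tet2, which lacks the CXXC domain and is known as a frequently mutated gene in blood cancers, varied little in its mean across the pulse-chase populations. Group means ran from 181 ± 25.9 CPM in post-tamoxifen control cells to 195 ± 7.21 CPM in ex-Foxp3 fl/fl cells, and neighbours in the order of means overlapped throughout. None of its 9 single contrasts there passed, with log2 fold changes of -0.031 to 0.10. For labeled over post-tamoxifen cells, averaged over the genotypes, the interval of 2 SE to either side ran from -0.13 to 0.18, where the Tet3 interval ran from -0.71 to -0.38 and the Tet1 interval from -1.32 to -0.62.

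The chimera was the exception for Tet2. Chimeric knockout libraries 1 to 4 held 166, 186, 160.1 and 201 CPM, against 210.4, 220.2, 228 and 227 CPM in control libraries 1 to 4. All 4 knockout libraries were below all 4 controls, and the library labelled chimeric knockout 4, which held control levels of Uhrf1, was the highest of the knockouts. The log2 fold change was -0.31 ± 0.085 (0.808-fold), just past the threshold (adjusted p = 0.0456). Tet2 was the 1 member that passed, beside 2.41% of all 9569 genes tested. Without the library labelled chimeric knockout 4 the value was -0.37 ± 0.088 (adjusted p = 0.0117), and without any other 1 library it was -0.33 to -0.26 and did not pass (adjusted p = 0.0759 to 0.175). Without chimera controls 3 and 4, the libraries high in B cell markers, it was -0.27 ± 0.10 (adjusted p = 0.299).

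The mix of Tet messages is given as shares, which were not tested. Of the Tet1, Tet2 and Tet3 signal summed per kb, Tet3 made up 61.5% ± 2.03 in labeled fl/fl cells and 63.9% ± 3.38 in labeled control cells, 61.9% ± 2.75 in ex-Foxp3 fl/fl cells and 67.0% ± 2.35 in ex-Foxp3 control cells, and 64.7% ± 3.22 in post-tamoxifen fl/fl cells and 72.7% ± 4.49 in post-tamoxifen control cells. In fl/fl mice the ranges of the Tet3 share overlapped, with labeled libraries at 59.5% to 64.4%, ex-Foxp3 libraries at 58.5% to 65.7% and post-tamoxifen libraries at 59.3% to 67.9%. Tet2 made up 29.6% ± 4.87 in post-tamoxifen fl/fl and 21.2% ± 3.75 in post-tamoxifen control cells. In the chimera the Tet2 share was 22.04% ± 3.85 in knockouts and 27.8% ± 2.04 in controls. Tet1 made up at most 8.02% in any library. The shares depend on the length used: with the longest transcript the Tet2 share was 34.0% ± 5.09 in post-tamoxifen fl/fl and 24.9% ± 4.24 in post-tamoxifen control cells, in the same order.

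**Figure D5:**
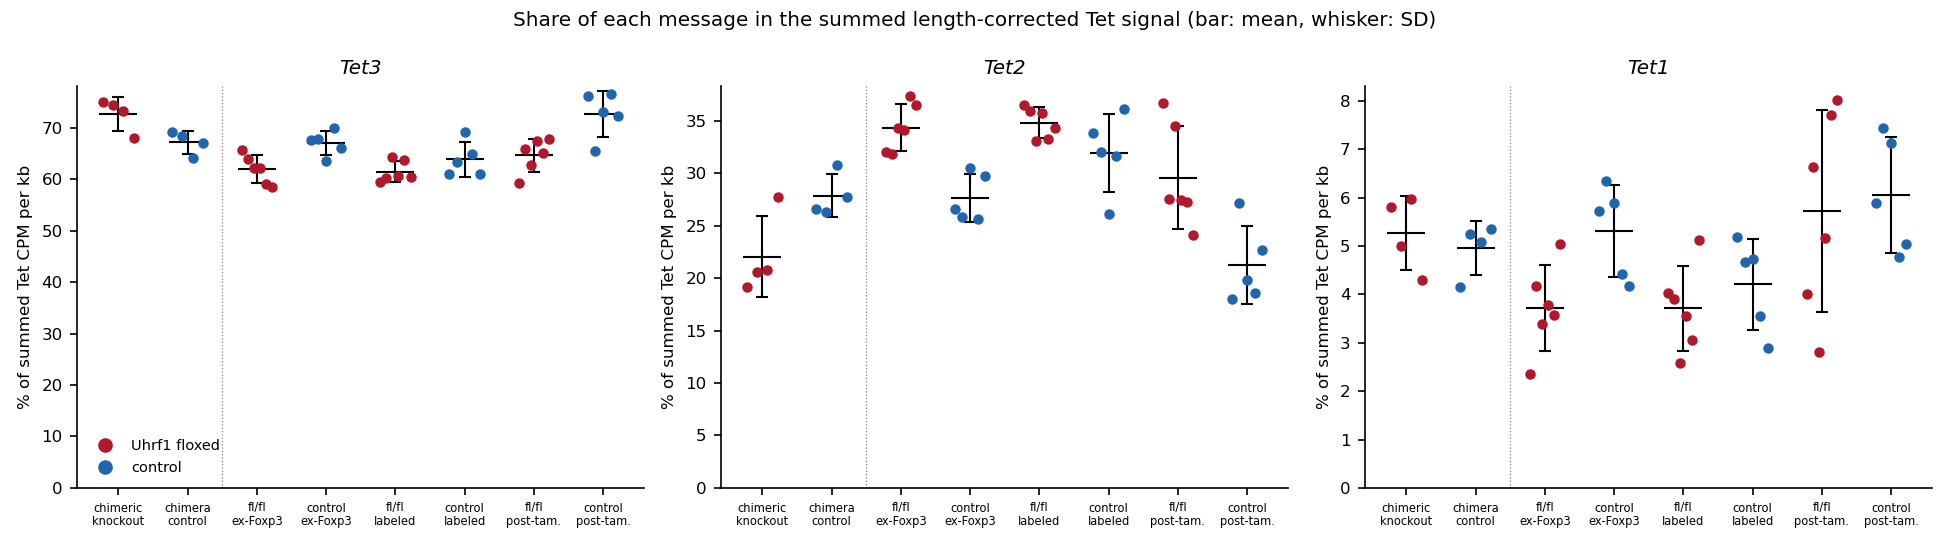
Share of Tet3, Tet2 and Tet1 in their summed CPM per kb of merged exon length (y axes, percent, from 0) in every library of the 8 groups; bars are means and whiskers SD. Tet3 takes the most in every library, and its mean share is 72.7% in chimeric knockouts and in post-tamoxifen control cells, the highest of each experiment.

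Tdg, which acts after the Tet enzymes, passed in 1 comparison, ex-Foxp3 over post-tamoxifen fl/fl cells. In ex-Foxp3 fl/fl cells the lowest, median and highest library held 29.9, 36.1 and 41.03 CPM, against 36.5, 49.8 and 54.0 CPM in post-tamoxifen fl/fl cells. Post-tamoxifen fl/fl library 4, at 36.5 CPM, was the only one within the range of the ex-Foxp3 libraries. Tdg was lower in the ex-Foxp3 library in 6 of 6 pairs, and the log2 fold change was -0.43 ± 0.14 (0.740-fold; adjusted p = 0.0319). In the other 14 comparisons Tdg did not pass. The averaged contrasts came nearest, with -0.28 ± 0.11 for labeled over post-tamoxifen (adjusted p = 0.0707) and -0.27 ± 0.10 for ex-Foxp3 over post-tamoxifen cells (adjusted p = 0.0698). Without post-tamoxifen fl/fl library 4 these were -0.31 (adjusted p = 0.0439 for labeled and 0.0335 for ex-Foxp3) and passed. The labeled contrast also passed without labeled control library 5 (-0.33, adjusted p = 0.0328), and the ex-Foxp3 contrast without post-tamoxifen control library 2 (-0.30, adjusted p = 0.0469) or without ex-Foxp3 fl/fl libraries 1 and 3 (-0.32, adjusted p = 0.0445). In fl/fl mice Tdg was lower in the labeled than in the post-tamoxifen library in 6 of 6 pairs. The called ex-Foxp3 over post-tamoxifen fl/fl value did not pass without ex-Foxp3 fl/fl library 2 or 4 or post-tamoxifen fl/fl library 3 or 5 (-0.42 to -0.41, adjusted p = 0.0518 to 0.0686), or with a term for myeloid markers (-0.34, adjusted p = 0.328) or for G2/M transcripts (-0.39, adjusted p = 0.0874). Tdg has a pseudogene that the count table does not list, so its counts may hold reads of another locus. In control mice the same contrast gave -0.11 ± 0.15 (adjusted p = 0.836). In the chimera Tdg averaged 42.9 ± 9.55 CPM in chimeric knockouts and 45.3 ± 6.71 CPM in controls (log2 fold change -0.087 ± 0.16, adjusted p = 0.881).

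No member was called between ex-Foxp3 and labeled cells. For ex-Foxp3 over labeled cells, averaged over the genotypes, log2 fold changes were 0.30 ± 0.18 for Tet1, 0.02 ± 0.078 for Tet2, 0.18 ± 0.083 for Tet3 and 0.01 ± 0.11 for Tdg, and adjusted p-values were 0.18 to 0.972. In control mice the ex-Foxp3 library of the same number was above the labeled one in 5 of 5 pairs for Tet1 (log2 differences of 0.234 to 0.74) and for Tet3 (0.101 to 0.408), and in fl/fl mice in 4 of 6 pairs for each. Averaged over the genotypes, Foxp3, whose reporter the cells were sorted on, was lower with a log2 fold change of -2.26 ± 0.27 (adjusted p = 2.26e-06), Il2ra, which encodes the interleukin receptor chain CD25, with -1.78 ± 0.17 and Ctla4, an inhibitory receptor, with -0.93 ± 0.13. Of 7 genes known to carry regions that are hypomethylated in Treg cells, Foxp3, Il2ra and Ctla4 among them, 6 were lower and none higher. Their median log2 fold change was -0.93, where all genes had 0.0062. Because the populations were sorted on the Foxp3 reporter, this count is no independent test. By edgeR and by DESeq2 0 members passed in fl/fl mice, in control mice or on average. With the replicate block, which these libraries support, 0 members passed as well, while the count over all genes was 893 against 406 without it in fl/fl mice, 211 against 35 in control mice and 1390 against 838 on average. In fl/fl mice 0 members had an unadjusted p under 0.05, where 18% of all genes had one and 4.09% passed. In control mice 1 member (Tet3) had one, where 9.6% of all genes did and 0.353% passed, and on average 1 member (Tet3) had one, where 22.1% did and 8.45% passed. In the test of the genotype difference in this contrast 0 members passed by edgeR or DESeq2 and 0 had an unadjusted p under 0.05, where 0% of all genes passed and 2.38% had an unadjusted p under 0.05.

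Base excision repair genes, which finish what Tdg begins, passed in few contrasts. Between genotypes 0 of 19 tested passed by edgeR in the chimera, beside 2.41% of all genes. In the pulse-chase fit 0 of 20 passed, beside 7.23% of all genes in post-tamoxifen, 0.181% in ex-Foxp3 and 0.0101% in labeled cells. In labeled cells 1 had an unadjusted p under 0.05, beside 9.41% of all genes, and in ex-Foxp3 cells 2 did, beside 8.84%. In post-tamoxifen cells 6 did, beside at least 2168 of all 9921 genes, the rank of Tet1 there at an unadjusted p of 0.0388. In labeled over post-tamoxifen cells on average 0 passed, beside 13.2% of all genes, and 2 had an unadjusted p under 0.05. At least 1478 of all 9921 genes had one there, the rank of Tdg at an unadjusted p of 0.0105. The median log2 fold change of the repair genes was -0.088, where all genes had -0.0086. In ex-Foxp3 over post-tamoxifen cells of fl/fl mice 5 of the 20 were lower and none higher, beside 15.2% of all genes called. On average over the genotypes 3 of 20 were lower (Ung, Apex1 and Fen1), beside 16.2% of all genes, and in ex-Foxp3 over labeled cells 2 of 20 (Fen1 and Apex1), beside 8.45%. The 5 of fl/fl mice included Apex1, the endonuclease that cuts the abasic site (-1.26 ± 0.25, adjusted p = 0.00065), Ung, the uracil glycosylase (-1.83 ± 0.52, adjusted p = 0.0134), and Fen1 (-1.15 ± 0.30, adjusted p = 0.00847) and Lig1 (-1.22 ± 0.34, adjusted p = 0.0161), which also process and join strands at the replication fork. Summed G2/M transcripts were 339 to 1013 CPM in ex-Foxp3 fl/fl and 359 to 5772 CPM in post-tamoxifen fl/fl cells, and their part in the repair gene values was not tested. In control mice none of the 20 passed, beside 5.33% of all genes, with 0 at an unadjusted p under 0.05.

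Among 10 tested Tet partners and demethylation adaptors, 2 were higher and 1 lower in labeled than in post-tamoxifen cells on average, beside 13.2% of all genes called. Prdm1, which encodes the repressor Blimp-1, was higher by 0.89 ± 0.21 (adjusted p = 0.00275) and Gadd45b by 0.64 ± 0.21 (adjusted p = 0.0315), while Gadd45g was lower by a log2 fold change of -1.11 ± 0.33 (adjusted p = 0.0191). Both Gadd45 genes encode stress-response adaptors. Prdm1 was also the 1 partner that passed between genotypes in post-tamoxifen cells (1.35 ± 0.31, adjusted p = 0.00665), beside 7.23% of all genes. It is also a regulator of plasma cells, and in the same comparison the plasma cell gene Igj was higher (4.30 ± 1.09, adjusted p = 0.0153), with the B and plasma cell sums given above. The part of plasma cells in the Prdm1 value was not tested. In ex-Foxp3 over labeled cells on average 1 of the 10 was higher and 1 lower, beside 8.45% of all genes called. The higher one was Ogt, whose glycosyltransferase binds Tet proteins (0.27 ± 0.073, adjusted p = 0.0167). In ex-Foxp3 over post-tamoxifen cells of fl/fl mice 1 was higher and 2 were lower, beside 15.2% of all genes. None of the partners passed in the chimera, beside 2.41% of all genes (1 of 10 at an unadjusted p under 0.05).

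Of 19 tested genes that supply or remove the small molecules Tet enzymes depend on, 1 was higher and 1 lower in fl/fl than in control post-tamoxifen cells, beside 7.23% of all genes called. Got2, a mitochondrial transaminase that makes oxoglutarate, was higher by 0.67 ± 0.16 (adjusted p = 0.00927), and Slc23a2, a vitamin C transporter, was lower at -0.41 ± 0.13 (adjusted p = 0.0496). Idh2, which makes oxoglutarate in mitochondria, was lower in labeled than in post-tamoxifen fl/fl cells (-0.71 ± 0.19, adjusted p = 0.0218). It was the 1 of 19 that passed there, beside 4.58% of all genes. Got1 (-0.60 ± 0.14, adjusted p = 0.00544) and Got2 (-0.39 ± 0.11, adjusted p = 0.026) were lower in ex-Foxp3 than in labeled cells on average. They were the 2 of 19 that passed there, beside 8.45% of all genes. In ex-Foxp3 over post-tamoxifen cells of fl/fl mice 2 of 19 were higher and 1 lower, beside 15.2% of all genes. In the chimera none of the 19 passed, beside 2.41% of all genes (1 at an unadjusted p under 0.05).

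On the side that writes methylation, Dnmt3a, which encodes a methyltransferase that acts on unmarked sites, was lower in labeled than in post-tamoxifen cells on average (-0.33 ± 0.088, adjusted p = 0.00821) and lower in ex-Foxp3 than in post-tamoxifen cells (-0.47 ± 0.088, adjusted p = 0.000145). It was the 1 gene of 11 tested in its group that passed in labeled over post-tamoxifen cells on average, beside 13.2% of all genes. The group's median log2 fold change was 0.0089 and that of all genes -0.0086. In ex-Foxp3 over post-tamoxifen cells 3 of the 11 were lower on average, beside 16.2% of all genes, and 5 in fl/fl mice, beside 15.2%. In ex-Foxp3 over labeled cells 2 were lower on average, beside 8.45%. Uhrf1 was among those lower in each, at -1.46 ± 0.47, -2.36 ± 0.61 and -1.46 ± 0.46 (adjusted p = 0.0305, 0.00941 and 0.0438). Cdca7 (0.94 ± 0.24, adjusted p = 0.0112) and Cdca7l (0.55 ± 0.17, adjusted p = 0.0395), where Cdca7 encodes a partner of the chromatin remodeler Hells, were higher in fl/fl than in control post-tamoxifen cells. Of the 11 genes, 2 passed in that comparison, beside 7.23% of all genes, and 8 had an unadjusted p under 0.05 by edgeR. At least 2168 of all 9921 genes had one there, the rank of Tet1 at an unadjusted p of 0.0388. Median log2 fold changes there were 0.88 over 20 S phase genes, 2.49 over 20 G2/M genes and 0.0083 over all genes. Of the S phase genes Slbp (0.76 ± 0.20, adjusted p = 0.0141) and Mcm6 (0.81 ± 0.22, adjusted p = 0.0221) passed, and of the G2/M genes 0 passed by edgeR. The part of dividing cells in the values of Cdca7 and Cdca7l was not tested. In the chimera Uhrf1 alone of this group passed (-0.95 ± 0.25, adjusted p = 0.0378). Of 12 readers of methylcytosine, 1 passed in labeled over post-tamoxifen cells on average, Zbtb38 (0.29 ± 0.064, adjusted p = 0.00108), beside 13.2% of all genes. Between genotypes 0 passed by edgeR in each of the 4 comparisons. Of all genes, 2.41% passed in the chimera, 0.0101% in labeled, 0.181% in ex-Foxp3 and 7.23% in post-tamoxifen cells. An unadjusted p under 0.05 was held by 1 reader in labeled cells, beside 9.41% of all genes, and 1 in ex-Foxp3 cells, beside 8.84%. In post-tamoxifen cells 3 had one, beside at least 2168 of 9921 genes. In the chimera 2 had one, beside at least 628 of 9569 genes, the rank of Foxp3 at an unadjusted p of 0.0115.

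The genes whose log2 CPM ran most like each member were listed from 7079 genes over the 33 pulse-chase libraries. For Tet3 they were Dgkd (r = 0.935), Rasgrp1 (0.916), Rreb1 (0.890), Lef1 (0.889) and Mtss1 (0.870), and with the group means subtracted these values were 0.613 to 0.819. For Tet1 they were Bach2 (r = 0.852), Ppp1r3f (0.846), Spnb2 (0.830), Foxp1 (0.827) and Actn1 (0.827), and 0.592 to 0.800 with the group means subtracted. Lef1, Bach2 and Foxp1 encode transcription factors of naive and resting T cells. The closest gene to Tet2 was Agtpbp1 (r = 0.681), followed by Kctd18, Zfp451, Cacnb1 and Ap1s3 (0.601 to 0.660), and the closest to Tdg was Anapc5 (r = 0.683), followed by Ikzf3, Ddx19b, Edem2 and Ezr (0.609 to 0.633). In the 8 chimera libraries the 5 Tet3 neighbours kept an r of 0.446 to 0.855, and the Tet1 neighbours one of -0.169 to 0.758. Of the 5 Tet2 neighbours 4 had an r below 0, down to -0.720, and of the 5 Tdg neighbours 4 did, down to -0.690. These are descriptions of libraries that share scaling and populations.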

How the data were processed

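RNA was measured by sequencing in 41 libraries. Read counts per gene are as the authors deposited them, in a table of 19434 genes. Per the submitters' processing notes, reads passed through bcl2fastq 2.17.1.14 and TopHat2 2.1.0 on mm10 (GRCm38); per the labels' protocols, libraries were made with a SMARTer stranded total RNA kit. The counting tool, its annotation and its strand setting are not given in the sources used here. Columns were matched to samples by their labels. Members and gene lists were chosen with earlier results of these data known.

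Each experiment was tested by itself with edgeR 4.0.16 (TMM, filterByExpr, robust quasi-likelihood F-test, two-sided, R 4.3.3), adjusted by Benjamini-Hochberg over all genes tested, at a threshold of 0.05. All adjusted p-values come from this fit unless another is named. The chimera fit held 9569 genes and the fit of the 33 pulse-chase libraries 9921. Because TMM was run within each experiment, levels are ranked within an experiment only. The labels do not say that a replicate number marks a mouse, so p-values measure the spread between these samples, which may be technical. Totals of 781437 to 5709702 counts limit the precision of low genes, and no replicate pair agreed within sampling noise (chi-square per degree of freedom at least 2.6). Exon lengths came from GENCODE transcripts of mm10, and promoters from RefSeq.

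Same-numbered libraries were checked for pairing by correlating their deviations from the group means. The numbers come from the labels, and every pair exceeded 0.1 in ex-Foxp3 with labeled cells (fl/fl 0.144 to 0.36, control 0.138 to 0.303) and, in fl/fl mice, in ex-Foxp3 (0.127 to 0.393) and labeled (0.244 to 0.438) with post-tamoxifen cells, but not in the other comparisons. Named were the 4 members, Uhrf1 and Foxp3, at most 4 called genes of each list per comparison by smallest p, and for each member the 5 genes with the highest correlation. Alternatives were total-count and DESeq2 scaling, other filters, DESeq2 1.42.0, a replicate block, groups fitted alone, each library left out, and, chosen after seeing the data, terms for G2/M and myeloid sums and subsets without the libraries that stood apart. The edgeR procedure was tested on simulated counts. Figures used matplotlib 3.10.9.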

Additional observations from a re-analysis of the deposited data

Results flagged for a closer look

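Of 32 combinations of gene and group, 3 had a library far from the rest of its group by Dixon's criterion, which flags about 1 in 20 groups by chance. Tet1 stood at 63.09 CPM in post-tamoxifen control library 3, where the other 4 held 41.92 to 44.41 CPM. Tet2 stood at 208.8 CPM in ex-Foxp3 fl/fl library 6, where the other 5 held 188.7 to 194.9 CPM. Tdg stood at 55.37 CPM in chimera control library 3, where the other 3 held 41.33 to 42.54 CPM. That chimera library was also 1 of the 2 controls high in B and plasma cell markers, and the part of those cells in its Tdg level was not tested.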

How the results depend on the processing

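Tet3 kept its direction and its call in post-tamoxifen fl/fl over control cells and in labeled over post-tamoxifen cells on average under all 13 other settings run for each and without any 1 library, and so did Tet1 in labeled over post-tamoxifen cells on average (-1.33 to -0.724). Depth limits Tet1 and Tdg, with as few as 16 and 29 reads in a library. The cause was not tested for any change below, and fits on subsets also hold fewer libraries.

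With the replicate block, the chimera Tet2 value was -0.313 (adjusted p = 0.0714) and passed no longer, although these samples share only a number. In comparisons whose numbers do not pair the samples, the block brought Tet1 past the threshold in ex-Foxp3 (-0.85, adjusted p = 0.0323) and post-tamoxifen fl/fl over control cells (-0.69, adjusted p = 0.0243) and in ex-Foxp3 over post-tamoxifen control cells (-0.60, adjusted p = 0.0409), and turned the Tet2 interaction between labeled and post-tamoxifen cells to 0.0166. It changed no other call of a member.

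The chimera Tet2 call was also lost with a CPM filter above 1 (-0.303) and without controls 3 and 4 (-0.266), and without 1 library its value was -0.367 to -0.256. For labeled over post-tamoxifen fl/fl cells Tet1 did not pass with the groups fitted alone (-0.88) or in numbers 1 to 3 (-0.482), and without 1 library was -1.05 to -0.672. For control cells it did not pass in numbers 1 to 3 (-0.967) or without control numbers 2 and 3 (-0.884), the pair that held reads of Y-linked genes. For ex-Foxp3 over post-tamoxifen fl/fl cells Tet1 did not pass with the groups fitted alone (-0.797), without ex-Foxp3 libraries 1 and 3 (-0.638) or in numbers 1 to 3 (-0.39), and without 1 library was -0.943 to -0.567. Tdg there did not pass with no filter (-0.431), without the libraries low in Foxp3 (-0.421), in numbers 1 to 3 (-0.426), in numbers 4 and above (-0.447), or with terms for G2/M (-0.388) or myeloid sums (-0.341), and without 1 library was -0.522 to -0.405. Tet3 in ex-Foxp3 over post-tamoxifen control cells did not pass in numbers 1 to 3 (-0.376) or with the myeloid term (-0.529). On average over the genotypes that contrast did not pass in numbers 1 to 3 for Tet1 (-0.425) or Tet3 (-0.142), nor for Tet3 with the myeloid term (-0.365). Tet1 between genotypes in post-tamoxifen cells, at -0.50 and not called, was 0.0352 in numbers 4 and above, but passed in numbers 1 to 3 (-1.11) and without fl/fl library 6 (-0.72). Tet3 between genotypes in ex-Foxp3 cells passed with the groups fitted alone (-0.32).

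Values near 0 that were never called changed sign. Tet2 between genotypes in labeled cells was 0.000998 with total-count scaling, 0.00366 with DESeq2 size factors, 0.00109 with DESeq2, 0.000613 with the groups alone and -0.1 to 0.0948 without 1 library. Tet2 between genotypes in post-tamoxifen cells was 0.00295 with total-count scaling, 0.00936 with DESeq2 size factors, 0.0101 with the CPM filter, 0.00643 with DESeq2, 0.00513 with the groups alone and -0.0608 to 0.0848 without 1 library. Tdg in ex-Foxp3 over labeled cells on average was -0.000642 with total-count scaling, -0.00213 with DESeq2 size factors and -0.0334 to 0.0542 without 1 library. Tet2 in ex-Foxp3 over post-tamoxifen control cells was 0.000507 with no filter, 0.00798 with the CPM filter and -0.0565 to 0.0802 without 1 library.

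Leaving out 1 library also gave these ranges across 0. For Tdg they were -0.202 to 0.0435 in the chimera, -0.158 to 0.00105 in ex-Foxp3 over post-tamoxifen control cells and -0.157 to 0.0507 in the labeled interaction. For Tet2 they were -0.134 to 0.0745 in ex-Foxp3 over labeled control cells and -0.0348 to 0.0761 on average, -0.0377 to 0.077 in labeled over post-tamoxifen fl/fl cells, -0.0767 to 0.141 in control cells and -0.026 to 0.0849 on average, and -0.112 to 0.101 in the labeled interaction. For Tet1 they were -0.0126 to 0.206 in ex-Foxp3 over labeled fl/fl cells and -0.00508 to 0.373 in the labeled interaction.

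The number of genes called in all was 231 (95 to 396 under other settings, 100 to 352 without 1 library) in the chimera. Between genotypes it was 717 (147 to 1650 under other settings, 390 to 1147 without 1 library) in post-tamoxifen cells, 18 (2 to 229 under other settings, 5 to 56 without 1 library) in ex-Foxp3 cells and 1 (0 to 149 under other settings, 1 to 9 without 1 library) in labeled cells. On average over the genotypes it was 1310 (456 to 1695 under other settings, 1112 to 1579 without 1 library) for labeled over post-tamoxifen, 1604 (513 to 2202 under other settings, 1332 to 1862 without 1 library) for ex-Foxp3 over post-tamoxifen and 838 (308 to 1390 under other settings, 558 to 902 without 1 library) for ex-Foxp3 over labeled cells.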
